A study of Mus musculus with 67 samples.

Results

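The 10 genes described here encode receptors, ligands and target genes of the Notch pathway. They were taken by name from the RNA-seq gene tables of mouse forelimb buds, which list 46983 gene IDs, and each name matched 1 gene ID. They are the receptors *Notch1*, *Notch2* and *Notch3*, the ligands *Jag1*, *Jag2* and *Dll1*, and the targets *Hes1*, *Hey1*, *Hey2* and *Heyl*. The study asked whether GLI3, a transcriptional repressor of Hedgehog (HH) target genes, represses transcription before the HH pathway is switched on in the limb. RNA was sequenced from 14 libraries in 4 groups. The pre-HH groups were whole forelimb buds at E9.25 (21 to 23 somites), with 3 WT and 4 *Gli3*-/- libraries of about 4 pairs of buds each. The post-HH groups were anterior forelimb buds at E10.5 (32 to 35 somites), with 4 WT and 3 *Gli3*-/- libraries of 2 pairs of buds each by the sample labels. The paper's methods instead give about 4 pairs per library at both stages. The mutants had the germline *Gli3* Xt-J allele and, like the WT embryos, came from Swiss Webster stock. Since each library pools buds of several embryos, the p-values measure the spread between pools, and since the stages also differ in the portion of the bud that was dissected, stage and portion cannot be told apart.

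Notch receptors are transmembrane proteins that are activated by ligands of the Jagged and Delta families on neighbouring cells. Binding leads to cleavage of the receptor, and the released intracellular domain enters the nucleus, where it joins the DNA-binding protein RBPJ and switches on genes such as those of the Hes and Hey families, which encode repressors. In the limb bud the pathway is known for its roles in the apical ectodermal ridge, a strip of ectoderm at the distal margin in which JAG2 acts, in blood vessels, and in muscle progenitors that enter the bud from the somites.

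Levels are given in TPM, read density per base of transcript divided by its sum over all genes of the library; these values are scaled for transcript length and so can be compared between genes. *Gli3* was read first as a check of the labels. It was at 44.2, 15.8 and 44.6 TPM in the 3 E9.25 WT libraries and between 14.3 and 20.8 TPM in the 4 E9.25 *Gli3*-/- libraries. At E10.5 it was between 73.4 and 89.7 TPM in WT and between 38.7 and 40.9 TPM in *Gli3*-/-, with no overlap, so its transcript was lower but not absent in the mutant. E9.25 WT replicate 2 overlapped the mutants in *Gli3* and stood apart from its group: genes spanning at least 100 kb lay 0.58 (log2) below their mean in the other libraries of the group, against 0.17 below for all genes, and the 10 Notch genes lay a median of 0.67 below. Only *Notch2* of the 10 spans 100 kb or more. The members were split, with *Hes1* (24.0 TPM), *Hey1* (11.1 TPM) and *Heyl* (0.094 TPM) at their highest of the group in replicate 2. Because this library stood apart, differences that use the E9.25 WT group are also given without it where it moves them most. Estimated depth was 38.1 to 56.8 M reads per library, at which 1 TPM corresponds to 20.7 to 29.3 reads per kilobase. All 7 limb mesenchyme markers examined were present in every group, at a summed level of 598 to 1079 TPM over the libraries, and the neural tube markers summed to at most 15.5 TPM.

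The 10 genes differed widely in level. In E9.25 WT buds *Hes1* had the highest mean level (20.4 ± 5.24 TPM, SD, n = 3), followed by *Notch3* (13.8 ± 8.71 TPM), *Jag2* (12.5 ± 5.59 TPM), *Notch2* (10.1 ± 6.08 TPM) and *Hey1* (10.1 ± 0.897 TPM), and the library ranges of neighbours in this order overlapped. *Notch1* (3.02 ± 1.13 TPM), *Jag1* (2.83 ± 1.03 TPM) and *Hey2* (2.30 ± 0.873 TPM) formed a lower group, *Dll1* was at 0.581 ± 0.183 TPM and *Heyl* at 0.0657 ± 0.0246 TPM. In anterior E10.5 WT buds *Notch3* came first (40.9 ± 6.15 TPM, n = 4) and *Hey1* was below *Hes1* and *Notch2* (19.9 ± 2.27 TPM). In anterior E10.5 *Gli3*-/- buds *Hey1* had the highest mean of the 10 (47.3 ± 8.56 TPM, n = 3), above *Hes1* (44.0 ± 4.59 TPM) and *Notch3* (40.8 ± 9.97 TPM), although the libraries' ranges for these 3 genes overlapped.

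**Figure D1:**
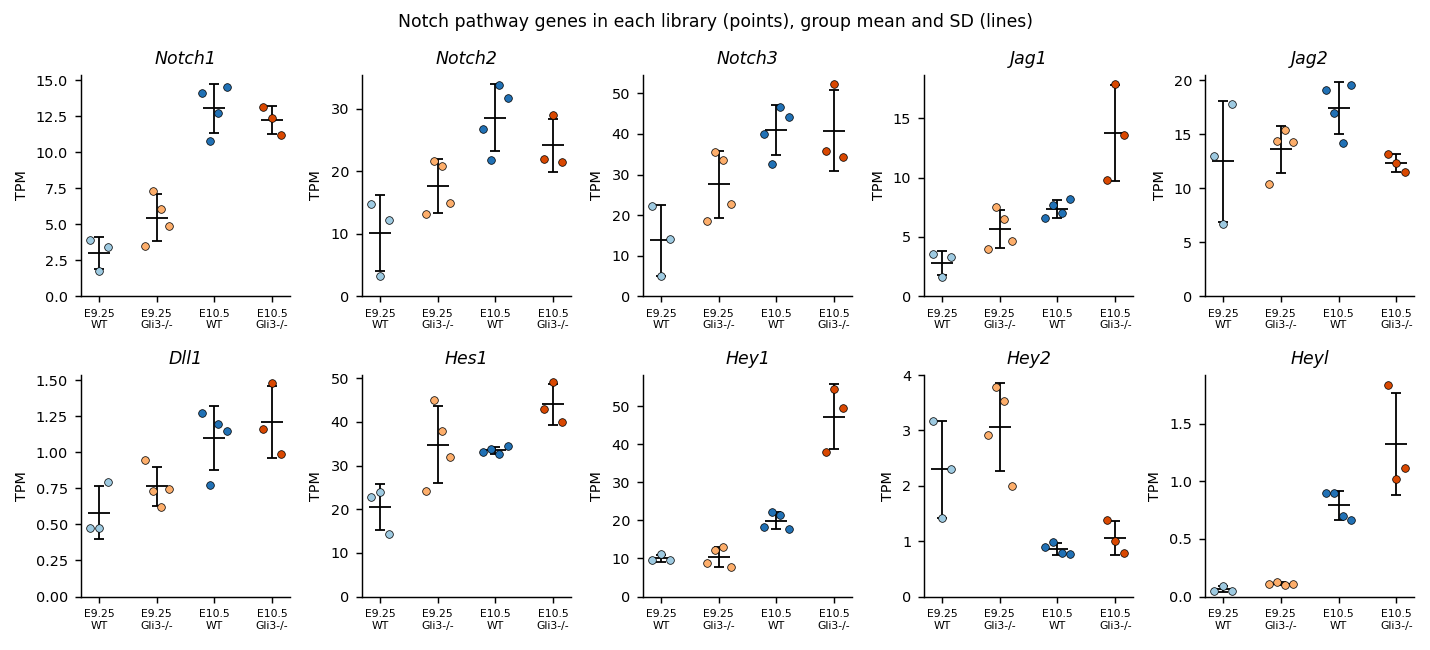
TPM (linear axis) of the 10 Notch pathway genes in each library of the 4 groups, E9.25 whole buds and E10.5 anterior buds, WT and *Gli3*-/-; points are libraries and lines are the group mean and SD. *Hey1* lies between 37.8 and 54.5 TPM in the E10.5 *Gli3*-/- libraries and at or below 22.3 TPM in all the other libraries.

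The comparison of *Gli3*-/- with WT in the anterior E10.5 bud addresses the effect of GLI3 loss after HH activation. A pair of target genes and a ligand were higher with loss of *Gli3*: *Hey1*, *Hes1* and *Jag1*. The scale of the test was log2(TPM + 1), limma was used, and it covered genes with at least 1 TPM in at least 3 of the libraries compared, and an adjusted p under 0.05 was counted as a change. Of the 9 Notch genes tested, 3 were upregulated and 0 downregulated, where 1.84% of the 15654 genes tested were upregulated, 2.93% were downregulated and 4.77% changed in either direction. Of the 9, 4 had an unadjusted p under 0.05, against 19.6% of all genes, *Jag2* being the one that did not pass after adjustment. The median gene moved by -0.02 on the log2 scale.

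*Hey1* encodes a basic helix-loop-helix repressor. It was at 18.2, 22.3, 21.3 and 17.7 TPM in the 4 E10.5 WT libraries and at 37.8, 54.5 and 49.5 TPM in the 3 *Gli3*-/- libraries. Every mutant library was above every WT library, and the ratio of the mean levels was 2.38. The log2 difference was 1.20 (SE 0.13, 95% interval 0.90 to 1.50, limma adjusted p = 0.00136).

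*Jag1*, a membrane-bound ligand, was at 6.56, 7.68, 6.97 and 8.22 TPM in WT and at 9.76, 17.9 and 13.6 TPM in *Gli3*-/-. The groups did not overlap, but the mutant libraries were spread widely, and the lowest of them was near the highest WT library. The log2 difference was 0.79 (SE 0.18, limma adjusted p = 0.0373). *Hes1*, a repressor that responds to Notch and to other signals, was at 33.2, 33.9, 32.6 and 34.4 TPM in WT and at 42.9, 49.1 and 40.1 TPM in *Gli3*-/-. The WT libraries were close together and all 3 mutant libraries were above them, by a ratio of means of 1.31. The log2 difference was 0.38 (SE 0.08, limma adjusted p = 0.0306).

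**Figure D2:**
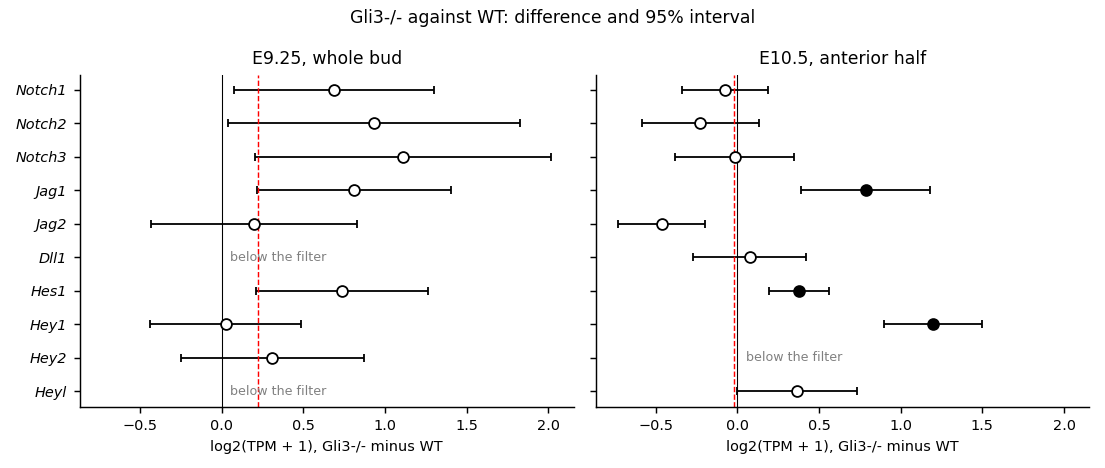
Difference between *Gli3*-/- and WT in log2(TPM + 1), with 95% intervals, for the 10 Notch pathway genes at E9.25 (left) and in anterior buds at E10.5 (right); filled circles passed an adjusted p of 0.05, the dashed line is the median of all genes tested, and genes below the filter have no value. The filled circles are *Jag1* (0.79), *Hes1* (0.38) and *Hey1* (1.20), all at E10.5.

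These calls were not equally firm. *Hey1* passed the threshold when any 1 of the 7 libraries was left out (limma adjusted p from 0.000981 to 0.00747) and under all 11 other settings tried. *Jag1* passed only without *Gli3*-/- replicate 1 (limma adjusted p = 0.00909) and was at 0.0670 to 0.125 without any other library. It passed in 7 of the 11 other settings (limma adjusted p from 0.0219 to 0.120). *Hes1* passed only without *Gli3*-/- replicate 3 (limma adjusted p = 0.0457) and was at 0.0527 to 0.0855 without any other library. It passed in 6 of the 11 other settings (limma adjusted p from 0.0103 to 0.499). Both calls were lost with no filter, with the replicate number as a block by either numbering and in a single model of all 14 libraries. The sign of the 3 differences was the same in all these fits.

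**Figure D3:**
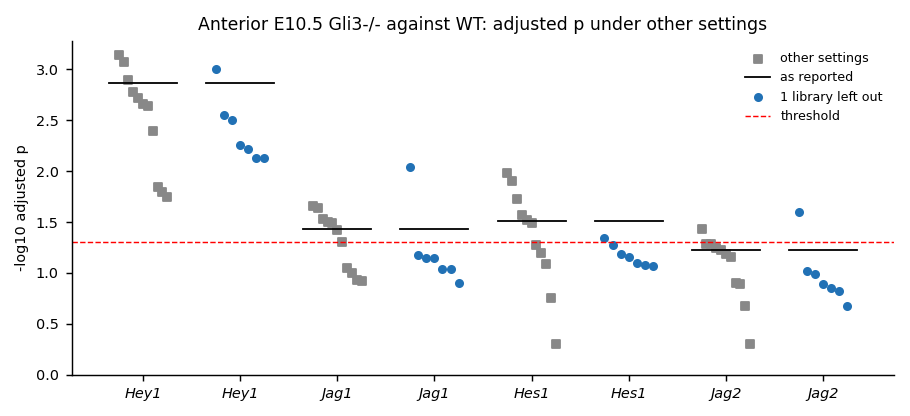
Adjusted p (as -log10, vertical axis) of *Hey1*, *Jag1*, *Hes1* and *Jag2* for *Gli3*-/- against WT in the anterior E10.5 bud. For each gene, squares are other processing settings, circles are fits with 1 library left out, the black line is the reported value and the dashed line is the threshold of 0.05. All points of *Hey1* are above the threshold, while *Jag1*, *Hes1* and *Jag2* have points on both sides.

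*Jag2*, the ligand of the apical ridge, was at 19.1, 17.0, 14.2 and 19.5 TPM in E10.5 WT and at 13.1, 12.3 and 11.5 TPM in *Gli3*-/-. All mutant libraries were below all WT libraries, and the log2 difference of -0.46 (SE 0.12) missed the threshold, with a limma adjusted p of 0.0599. It passed under sample quality weights (limma adjusted p = 0.0367) and without WT replicate 3 (limma adjusted p = 0.0253). *Heyl*, a further repressor of the Hey family, was at 0.662 to 0.900 TPM in WT and at 1.83, 1.02 and 1.12 TPM in *Gli3*-/-, again without overlap, and had a log2 difference of 0.36 (limma adjusted p = 0.262). *Heyl* passed the filter only through the *Gli3*-/- libraries, since all 4 WT libraries were under 1 TPM, so it is left out of the count of groups that did not overlap. Of the other 8 genes tested, 3 were higher and 1 was lower in every mutant library than in every WT library. Over all genes tested, those that passed the filter as *Heyl* did included, 7.87% and 11.5% were so.

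The receptors had no value past the threshold at E10.5. *Notch1*, which acts in endothelium among other tissues, was at 10.8 to 14.5 TPM in WT and 11.2 to 13.2 TPM in *Gli3*-/-, with a log2 difference of -0.08 (95% interval -0.34 to 0.19). *Notch2*, a broadly expressed receptor, differed by -0.23 (-0.58 to 0.13), and *Notch3*, known for its role in mural cells of vessels, by -0.02 (-0.38 to 0.35). The ligand *Dll1* was at 0.774 to 1.27 TPM in WT and 0.987 to 1.48 TPM in *Gli3*-/-, a log2 difference of 0.08 (-0.27 to 0.42). *Hey2* was below the filter, at 0.772 to 0.992 TPM in WT and 0.787 to 1.38 TPM in *Gli3*-/-. These intervals leave room for differences of the size seen for *Hes1* in several of these genes, so a p that missed the threshold does not show that they were alike.

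Marker genes of cell types in which Notch acts were read beside these values. The 10 endothelial markers summed to 148 to 175 TPM in E10.5 WT and 142 to 175 TPM in *Gli3*-/-. In the limma test 0 of the 10 passed, with 0 also at an unadjusted p under 0.05, and the log2 differences were from -0.17 to 0.22. The part of endothelium in the value of *Hey1* was not tested. Of the 7 mural cell markers, 4 were tested and 0 passed, with 1 at an unadjusted p under 0.05. The 7 somite and muscle progenitor markers summed to 65.5 to 79.8 TPM in WT and 43.9 to 76.3 TPM in *Gli3*-/-, with 0 of 6 tested past the threshold and 1 at an unadjusted p under 0.05. The 9 markers of surface ectoderm and apical ridge summed to 198 to 246 TPM in WT and 290 to 321 TPM in *Gli3*-/-. The ridge signal *Fgf8* was the 1 that passed, at 50.4 to 69.0 TPM in WT and 131 to 171 TPM in *Gli3*-/-. The list did not move one way: 3 of the 9 differences were positive, where 45.1% of all genes tested were, and the median was -0.24. At an unadjusted p under 0.05 there were 4, *Fgf8* with a positive difference and *Krt18* (-0.24), *Sp8* (-0.38) and *Esrp1* (-0.42) with negative ones. The part of these markers in the value of *Jag2* (-0.46) was not tested. Of the 7 limb mesenchyme markers, 2 were higher and 4 lower. The erythroid markers of *Gli3*-/- replicate 3 summed to 33333 TPM, against 10110 to 13830 TPM in the WT libraries, and without that library *Hey1* differed by 1.16 (limma adjusted p = 0.00747), *Jag1* by 0.77 (0.125) and *Hes1* by 0.44 (0.0457). In pools of whole tissue, fewer cells of a type and less RNA per cell cannot be told apart.

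**Figure D4:**
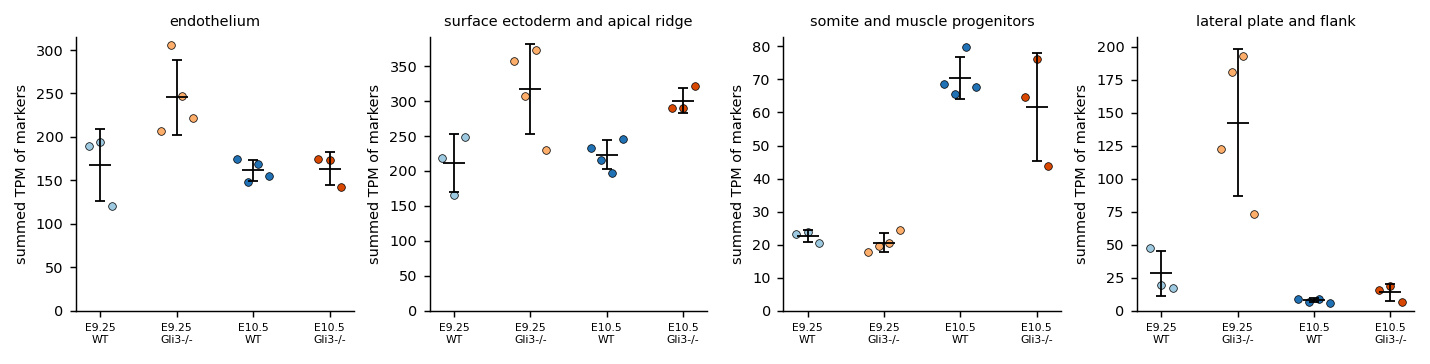
Summed TPM (linear axis) of marker genes of endothelium, surface ectoderm and apical ridge, somite and muscle progenitors, and lateral plate and flank in each library; points are libraries and lines are the group mean and SD. Endothelial sums overlap between genotypes at E10.5 (148 to 175 TPM in WT, 142 to 175 TPM in *Gli3*-/-) and do not at E9.25 (120 to 194 TPM and 207 to 306 TPM).

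The same comparison at E9.25 addresses the effect of GLI3 loss before HH activation. No member passed the threshold, and *Hey1* had nearly the same mean level in both genotypes, while the receptors, *Jag1* and *Hes1* had higher means in *Gli3*-/- that were not past the threshold. With limma, 0 of the 8 genes tested passed, where 0.136% of 14760 genes passed, 0.108% higher and 0.0271% lower in *Gli3*-/-. In a single model of all 14 libraries 2 of the 8 passed, *Jag1* and *Hes1*, where 8.03% of all genes passed. At an unadjusted p under 0.05 there were 5 of the 8, where 22% of all genes were so. The median gene was 0.23 higher in *Gli3*-/- on the log2 scale.

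*Hey1* was at 9.53, 11.1 and 9.58 TPM in E9.25 WT and at 8.85, 12.3, 12.9 and 7.69 TPM in *Gli3*-/-. The mutant libraries lay on both sides of the WT libraries, with 2 above and 2 below all of them. The log2 difference was 0.02 (SE 0.21, 95% interval -0.44 to 0.49, limma adjusted p = 0.948), it was 0.09 without WT replicate 2, and its sign turned under other scalings. The interval does not reach the difference of 1.20 seen at E10.5.

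*Jag1* was at 3.55, 1.65 and 3.27 TPM in WT and at 4.02, 7.50, 6.54 and 4.65 TPM in *Gli3*-/-, and *Hes1* was at 22.9, 24.0 and 14.4 TPM in WT and at 24.3, 45.1, 37.9 and 31.9 TPM in *Gli3*-/-. For both genes all mutant libraries were above all WT libraries, as for 9.97% of all genes, and no Notch gene was lower in this way, as 3.36% of all genes were. The log2 differences were 0.81 (95% interval 0.22 to 1.40) for *Jag1* and 0.74 (0.21 to 1.26) for *Hes1*, each with a limma adjusted p of 0.217, and of 0.0495 and 0.0425 in the single model of all 14 libraries. The SE of *Jag1* was 0.27 here, against 0.18 at E10.5, where its difference was 0.79.

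*Notch3* was at 22.3, 4.93 and 14.1 TPM in E9.25 WT and at 18.5, 35.5, 33.7 and 22.7 TPM in *Gli3*-/-. *Notch2* was at 14.8, 3.22 and 12.2 TPM in WT and at 13.1, 21.7, 20.9 and 14.9 TPM in *Gli3*-/-. *Notch1* was at 3.91, 1.75 and 3.39 TPM in WT and at 3.49, 7.30, 6.09 and 4.87 TPM in *Gli3*-/-. In all 3 receptors WT replicate 2 was the lowest of the 7 libraries, and *Gli3*-/- replicate 1 lay within the range of WT. The log2 differences were 1.11 for *Notch3*, 0.93 for *Notch2* and 0.69 for *Notch1*, with limma adjusted p of 0.217, 0.223 and 0.217. Without WT replicate 2 they were 0.56, 0.34 and 0.44, and those of *Jag1* and *Hes1* were 0.57 and 0.86. *Jag2* differed by 0.20 with that library and by -0.16 without it, and *Hey2* by 0.31 and 0.11. *Dll1* (0.474 to 0.792 TPM in WT, 0.623 to 0.947 TPM in *Gli3*-/-) and *Heyl* (0.0510 to 0.0941 TPM, 0.0992 to 0.128 TPM) were below the filter.

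Markers of other cell types moved with genotype at E9.25, and not all one way. The 10 endothelial markers summed to 120 to 194 TPM in WT and 207 to 306 TPM in *Gli3*-/-, without overlap. Of the 10 differences 9 were positive, where 73.9% of all genes tested had a positive difference. In the limma test 0 passed and 6 had an unadjusted p under 0.05, where 22% of all genes had. The 6 lateral plate and flank markers summed to 17.2 to 47.6 TPM in WT and 73.5 to 193 TPM in *Gli3*-/-. Of the 6, 3 were upregulated (*Foxf1*, *Gata4* and *Osr1*), where 0.108% of all genes tested were. *Foxf1*, at a mean of 1.17 TPM in WT, passed the filter only through the *Gli3*-/- libraries, so its call is given as a description. The neural tube markers summed to 6.03 to 12.5 TPM in WT and 2.77 to 4.74 TPM in *Gli3*-/-. These sums were nearly all *Tubb3*, the only 1 of the 6 tested. No other neural tube marker exceeded 0.33 TPM in any E9.25 library. The median difference of the somite and muscle progenitor markers was -0.26. Differences ranged from -1.69 to 0.92 in limb mesenchyme markers and from -1.31 to 1.49 in those of surface ectoderm and apical ridge. No marker of these 4 lists passed the limma test. The part of these cell types in the values of the receptors, *Jag1* and *Hes1* was not tested.

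Whether the effect of GLI3 loss differed between the stages was tested directly with an interaction term in a limma model of the 14 libraries. *Hey1* passed: its log2 difference between genotypes was larger at E10.5 than at E9.25 by 1.18 (SE 0.25, 95% interval 0.65 to 1.70, limma adjusted p = 0.0222). It was the only 1 of the 10 Notch genes that did, where 2.13% of 16368 genes passed in either direction and 0.477% in this direction. At an unadjusted p under 0.05 there were 4 of the 10, against 21% of all genes, and the median gene had an interaction of -0.24. *Heyl* is among the 10 only through the E10.5 *Gli3*-/- libraries, and it passed neither threshold. The call of *Hey1* was lost without E9.25 WT replicate 2 (limma adjusted p = 0.0544), E10.5 WT replicate 1 (0.0548), E10.5 WT replicate 4 (0.0568), E10.5 *Gli3*-/- replicate 2 (0.0665) or E10.5 *Gli3*-/- replicate 3 (0.0785), with estimates of 1.05 to 1.32 over all 14 fits. The receptors had negative interactions that did not pass, at -0.76 for *Notch1*, -1.16 for *Notch2* and -1.13 for *Notch3* (limma adjusted p from 0.198 to 0.224). Without E9.25 WT replicate 2 these were -0.51, -0.57 and -0.57, while without E9.25 WT replicate 1 *Notch3* was at -1.56 and passed (limma adjusted p = 0.0451). *Jag1* had an interaction of -0.03 (95% interval -0.74 to 0.69), and *Hes1* of -0.36 (-0.93 to 0.21), and without E9.25 WT replicate 2 these were 0.22 and -0.49.

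Between the stages in WT, the receptors, *Jag1*, *Hes1* and *Hey1* were higher in the anterior E10.5 bud than in the E9.25 bud. Of the 9 genes tested, *Dll1* and *Hey2* passed the filter only through the stage at which they were higher, and *Hey2* was the only 1 called lower. Of the other 7, 6 were upregulated and 0 downregulated in limma, where 38.1% of 15444 genes were upregulated, 10.6% downregulated and 48.7% changed in either direction. At an unadjusted p under 0.05 there were 6 of the 7, against 57.9% of all genes. In 6 of the 7 every E10.5 library was above every E9.25 library and in 0 below, where 41.5% and 12% of all genes were so. The median gene was higher by 0.34 on the log2 scale, and the split over all genes depended on scaling, with 5885 up and 1635 down as reported and 3073 up and 3334 down with size factors. The count of Notch genes is thus given with a background in which many genes moved the same way. That background still holds genes that passed the filter only through a single stage, so the sets are not alike. The same WT libraries serve as controls of the genotype comparisons.

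Among the receptors, *Notch1* rose from 1.75 to 3.91 TPM at E9.25 to 10.8 to 14.5 TPM at E10.5, a ratio of means of 4.32 and a log2 difference of 1.84 (limma adjusted p = 0.000487). *Notch2* rose by 1.61 (limma adjusted p = 0.0129) and *Notch3* by 1.70 (limma adjusted p = 0.00881), to 21.9 to 33.9 TPM and 32.7 to 46.7 TPM in the 4 E10.5 libraries. Without E9.25 WT replicate 2 the 3 values were 1.59, 1.02 and 1.14, all past the threshold. *Jag1* rose by 1.16 (limma adjusted p = 0.00316), *Jag2* differed by 0.54 (limma adjusted p = 0.132), or 0.18 without that library. *Dll1* differed by 0.41 (limma adjusted p = 0.0676), or 0.36 without it.

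Of the targets, *Hey1* rose by 0.91 (limma adjusted p = 0.00121) and *Hes1* by 0.72 (limma adjusted p = 0.00908). *Hes1* did not pass under either of the 2 other scalings (limma adjusted p of 0.0921 and 0.149), and *Hey1* was at 0.0508 with quantile normalization. *Hey2*, known for its role in heart and artery development, was at 3.17, 1.43 and 2.30 TPM at E9.25 and at 0.891, 0.992, 0.780 and 0.772 TPM at E10.5. Every E10.5 library was under 1 TPM, so the gene was tested only because of its E9.25 libraries, and its log2 difference of -0.79 (limma adjusted p = 0.0128, and 0.0505 with the replicate block) is given as a description. Without E9.25 WT replicate 2 the rise was 0.98 for *Hey1*, 0.85 for *Hes1* and 0.92 for *Jag1*, all past the threshold, and *Hey2* was below the filter. *Heyl*, below the filter here, was at 0.0510 to 0.0941 TPM at E9.25 and 0.662 to 0.900 TPM at E10.5, also without overlap. Over the same interval 27 of 46 tested genes of a wider list of 54 Notch pathway genes were upregulated and 1 was downregulated, where 38.1% and 10.6% of all genes were. Unlike the count of members, this count holds genes that passed the filter only through the stage at which they were higher.

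In *Gli3*-/- buds, the shares over all genes again hold genes that passed the filter only through a single stage. *Hey2*, called lower at E10.5, and *Heyl*, called higher, passed the filter only through the stage at which they were higher. Of the other 7 genes tested, 3 were upregulated between the stages and 0 downregulated in limma, where 15.8% and 9.17% of 15434 genes were (25% in either direction), and the median gene moved by 0.06. At an unadjusted p under 0.05 there were 5 of the 7, against 37.2% of all genes tested. The groups did not overlap for 3 of the 7 genes, all higher at E10.5, where 22.3% of all genes were higher and 13.4% lower in this way. *Hey1* rose by 2.09 (SE 0.19, limma adjusted p = 4.11e-05), to a mean of 47.3 TPM, a ratio of means of 4.52, against a ratio of 1.97 in WT. *Notch1* rose by 1.07 (limma adjusted p = 0.00349) and *Jag1* by 1.14 (limma adjusted p = 0.00572). As a description, *Heyl* was at 0.0992 to 0.128 TPM at E9.25 and 1.02 to 1.83 TPM at E10.5, and *Hey2* was at 2.93, 3.78, 3.53 and 2.00 TPM at E9.25 and at 1.38, 0.996 and 0.787 TPM at E10.5, with log2 differences of 1.05 and -0.97. *Notch2* (0.45), *Notch3* (0.57), *Hes1* (0.36) and *Jag2* (-0.13) had limma adjusted p of 0.102 to 0.590, and 3 of these 4 passed under sample quality weights. The differences between genotypes in these stage values are the interactions given above, of which that of *Hey1* passed.

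**Figure D5:**
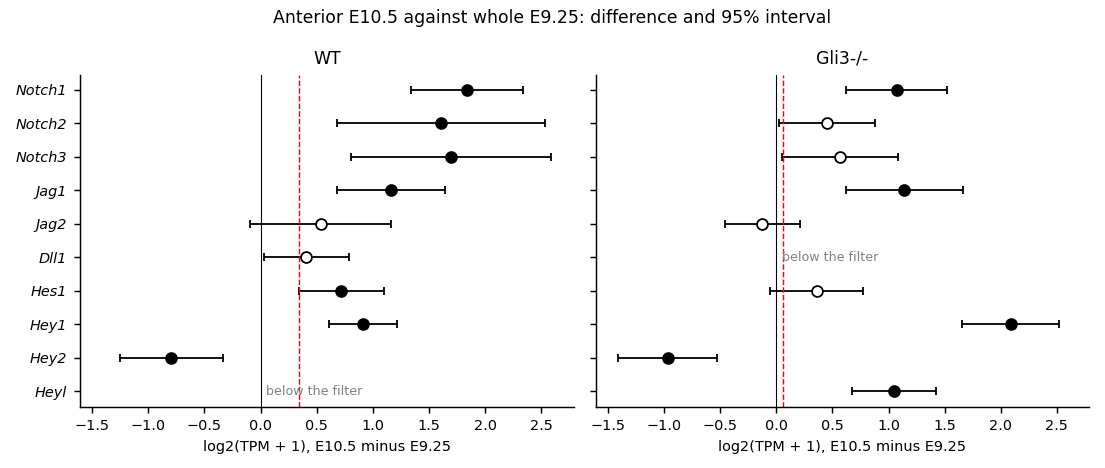
Difference between anterior E10.5 and whole E9.25 buds in log2(TPM + 1), with 95% intervals, for the 10 Notch pathway genes in WT (left) and *Gli3*-/- (right); filled circles passed an adjusted p of 0.05 and the dashed line is the median of all genes tested. *Hey1* is at 0.91 in WT and 2.09 in *Gli3*-/-. *Hey2* in both panels, *Dll1* in WT and *Heyl* in *Gli3*-/- passed the filter only through the stage at which they were higher.

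The other genes of the pathway gave no call with genotype. Of the list of 54, which holds further receptors and ligands, enzymes that modify or cleave the receptor, the nuclear complex, inhibitors and other Hes genes, 0 of 43 tested passed the limma test at E9.25 and 0 of 46 at E10.5, with 10 and 5 at an unadjusted p under 0.05, where 22% and 19.6% of all genes were. For the interaction 0 of 46 passed in limma, with 13 at an unadjusted p under 0.05, where 21% of all genes were. *Hes2*, *Hes3* and *Helt* were listed at 0 in every library. Between stages in WT the upregulated genes were spread over the roles, with 6 of 10 tested in receptor cleavage, 4 of 8 in the nuclear complex, 4 of 7 corepressors and 5 of 8 in turnover and inhibition, where 38.1% of all genes were upregulated. These counts, and those for *Gli3*-/- below, hold genes that passed the filter only through the stage at which they were higher. Those with the largest rise were *Nrarp*, an inhibitor that is itself a Notch target (1.69, limma adjusted p = 0.000139), *Hes6*, a Hes family gene (1.50, limma adjusted p = 5.62e-05), and *Aph1b*, a subunit of the gamma-secretase that cleaves the receptor (1.27, limma adjusted p = 0.000737). *Dlk1*, a Delta-like protein that lacks the part by which the ligands bind the receptor, fell by 2.13 on the log2 scale (limma adjusted p = 0.000921). In *Gli3*-/- 9 of 44 were upregulated and 2 downregulated, where 15.8% and 9.17% of all genes were, and *Hes6* (1.67), *Nrarp* (1.64) and *Aph1b* (1.52) again had the largest rise, while *Dlk1* fell by 3.38 and *Dtx4*, a Deltex gene, fell by 0.83.

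The genes whose levels most resembled each member were ranked by the root mean square difference in log2(TPM + 1) over the 14 libraries, after each gene was centred on its own mean, for the 8 members whose group means span at least 1. Nearest to *Hey1* were *Pdzd2* (0.180) and *Gldc* (0.190). *Gldc*, a subunit of the glycine cleavage enzyme, had mean levels of 9.57, 10.2, 19.3 and 44.6 TPM in E9.25 WT, E9.25 *Gli3*-/-, E10.5 WT and E10.5 *Gli3*-/-. *Dchs1*, a large cadherin, was nearest to both *Notch2* (0.0913) and *Notch3* (0.108), and *Notch2* was the second nearest to *Notch3* (0.143). *Dlg5* (0.162) and *Xpr1* (0.168) were nearest to *Notch1*, *Dock6* (0.182) and *Cxxc4* (0.202) to *Jag1*, and *Glul* (0.148) and *Map2k3* (0.157) to *Hes1*. *Gucy1a3* (0.171) and *Ldoc1* (0.173) were nearest to *Hey2*, and *Lurap1l* (0.155) and *Gm36992* (0.159) to *Heyl*. These are descriptions over libraries that differ in stage and genotype, and the second nearest to *Notch2* was *Pkd1* (0.142).

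The members lie on chromosomes 2, 3, 4, 10, 12, 16 and 17 (mm10), none on the chromosome of *Gli3*. *Hey1* (ENSMUSG00000040289.8) spans chr3:8663359-8667256 on the minus strand, *Jag1* (ENSMUSG00000027276.7) chr2:137081456-137116644 on the minus strand, *Hes1* (ENSMUSG00000022528.7) chr16:30064384-30067796 on the plus strand and *Hey2* (ENSMUSG00000019789.8) chr10:30832359-30842801 on the minus strand. No other listed gene overlaps these 4.

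RefSeq promoter windows around the gene start on GRCm38.p6 were at hand for 7 of the 10 members, among them *Hey2*. None was at hand for *Hey1*, *Hes1* or *Heyl*, so these genes were not searched. They were searched on both strands for GTGGGAA, the core letters bound by RBPJ, since RBPJ carries the Notch signal to its targets. The letters are in 6.38% of 32851 promoter windows, or in those of 7.25% of 27025 genes. Of the 7 members searched, 1 has them, *Hey2*, with 2 matches. Each is printed on the strand of the gene with 10 bases to either side, and the capitals mark the match, in the second on the opposite strand.
Hey2, chr10:30842771-30842797: gggctgcagcGTGGGAAagaacctcca
Hey2, chr10:30842974-30843000: cgcggtggcaTTCCCACgcctctgcca
The RefSeq start of *Hey2* is at position 30842783 of chromosome 10, inside the span that the gene tables give. Counted from it, the first base in capitals is 4 bases upstream in the first and 207 bases upstream in the second. The GLI core GACCACCCA was in none of the windows of the 7 members searched and in 0.253% of all windows. A match describes letters only and is not a measured site.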

How the data were processed

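The authors pooled forelimb buds in TRIzol, prepared libraries with the NEBNext Ultra II kit, sequenced single reads of 100 bases and aligned them with HISAT2 (version not given in the sources used here). The submitters' processing notes name mm10. The tool and annotation behind the gene tables are not given in the sources used here. The tables that the authors deposited hold, for each gene, the coverage (a signal, mean read depth per base), the FPKM and the TPM. The deposited TPM was used for all comparisons. Coverage and the deposited FPKM served only to estimate depth. The number of unused per-sample columns was 0. The other assays of the series were not used here.

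The 10 members and the gene lists were chosen with earlier results of these data known. TPM of repeated gene IDs was summed and log2(TPM + 1) was tested with limma 3.58.1 in R 4.3.3 (trend, two-sided, Benjamini-Hochberg adjustment over all genes tested) for 4 comparisons and the interaction, where 3 or more of the libraries compared had a TPM of 1 or more. The fold changes therefore understate changes of low genes. No test on counts was possible, since the tables hold none. Named are all members, the pathway genes that passed with genotype, the 3 per direction with the largest change between stages among those that passed, the 2 genes most like each member, and *Gli3*. Other names (*Fgf8*, *Krt18*, *Sp8*, *Esrp1*, *Tubb3*, *Foxf1*, *Gata4*, *Osr1*) were chosen after their values were seen. The procedure was tested on simulated data: of 100 genes changed by 1 log2 it called 86 for E10.5 (15654 genes) and 53 for E9.25 (14760 genes). For the interaction it called 40 (16368 genes). The simulated noise was independent between genes and low genes were raised in level. Shifts of a whole library and genes near 1 TPM were therefore outside this test.

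Other settings tried were a pseudocount of 0.1, a stricter filter (TPM of 5) or none, no trend, quantile normalization, size factors, sample weights, the replicate number as a block, one model of 14 libraries and each library left out. Removal of the trend over gene span, and a block by the numbers of the deposited tables, were added after seeing the data. Python 3.11.15, pandas 2.3.3, NumPy 2.4.6 and matplotlib 3.10.9 were used.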

Additional observations from a re-analysis of the deposited data

Results flagged for a closer look

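The effect of GLI3 loss on *Hey1* differed between the stages by the interaction of stage and genotype, at 1.18 on the log2 scale (limma adjusted p = 0.0222). At E9.25 the difference was 0.02 and at E10.5 it was 1.20, with all 3 E10.5 mutant libraries above all 4 WT libraries. Leaving out 1 library gave limma adjusted p of 0.0192 to 0.0785. The stages also differ in the portion of the bud dissected. In 20 groups of 4 libraries (10 genes in both groups of that size), 0 held a library far from the others. Groups of 3 libraries were not examined, among them E9.25 WT, whose replicate 2 stood apart.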

How the results depend on the processing

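Of 807 values of single members under alternatives, 720 kept direction and side of the threshold. At E10.5 the count of 3 Notch genes changed with genotype fell to 1 with no filter, the replicate block, one model of all 14 libraries or the block by table numbers, and to 1 to 2 with a library left out. *Hey1* passed in all these fits. At E9.25 the count of 0 became 2 in one model of 14 libraries. Between stages, the counts here take in members that passed the filter only through the stage at which they were higher, unlike those above. In *Gli3*-/- the 5, with *Hey2* and *Heyl* among them, became 3 with a TPM of at least 5, which tests fewer members. The count was 8 with sample weights and 4 to 7 with a library left out. In WT the 7, with *Hey2* among them, stayed at 5 to 8 (6 to 8 with a library left out). The 1 interaction became 0 with no filter and 0 to 2 with a library left out. By the titles, same-numbered libraries did not deviate together (mean r of -0.18 in the pre-HH and -0.05 in the post-HH genotype comparison). By the table numbers the 3 post-HH pairs had r of 0.052 to 0.32 (mean 0.19, against -0.063 for other pairs), and 1 was under the 0.1 set for pairing. With the replicate block the interaction count was 1 and *Hey1* at E10.5 had an adjusted p of 0.0162.

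Signs turned only for values not past the threshold. For quantile normalization, size factors, sample weights and trend removal in this order, *Jag2* at E9.25 was at -0.10, -0.032, -0.048 and -0.0094, *Hey1* at E9.25 at -0.26, -0.21, -0.10 and -0.12, the interaction of *Jag1* at 0.35, 0.19, 0.17 and 0.24, and that of *Hey2* at 0.20, 0.0071, 0.095 and 0.031. The interaction of *Dll1* was 0.20, 0.027 and 0.12 for all but sample weights. *Notch3* at E10.5 was 0.021 with size factors, 0.025 with the block and 0.0043 with trend removal, *Dll1* at E10.5 was -0.029 with sample weights and *Dll1* between WT stages was -0.16 with quantile normalization. With a library left out, *Hey1* at E9.25 ranged from -0.080 to 0.15, *Jag2* at E9.25 from -0.16 to 0.49, *Notch3* at E10.5 from -0.20 to 0.093, *Dll1* at E10.5 from -0.011 to 0.15, and the interactions of *Jag1* from -0.22 to 0.22 and *Hey2* from -0.36 to 0.029. The cause was not tested. Over all genes, the 20 called at E9.25 became 1185 in one model, the 747 at E10.5 became 164 with the block, the 348 interactions became 150 without E10.5 *Gli3*-/- replicate 3, the 3853 called between stages in *Gli3*-/- became 6520 with sample weights, and the interaction split of 78 higher and 270 lower became 164 and 181 with quantile normalization. Genes near 1 TPM, such as *Dll1*, *Hey2* and *Heyl*, rest on few reads.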
